A study of Mus musculus with 38 samples.

Results

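Circadian clock genes and clock output genes were examined as a set of 30 genes, chosen by symbol from a list and matched to Ensembl identifiers among the 55416 in the count tables. Arntl is the gene for BMAL1. All 30 were found, and all 30 passed the low-count filter in each of the 3 tables. They fall into 4 roles: 11 genes that peak in the phase of Dbp (Dbp, Tef, Hlf, Nr1d1, Nr1d2, Per1, Per2, Per3, Ciart, Usp2 and Bhlhe41), 5 that peak in the phase of Arntl (Arntl, Clock, Npas2, Cry1 and Nfil3), 9 regulators of the loop and 5 output genes. The phases are textbook knowledge used to sort the genes, and were not measured here. The study sequenced mRNA from dissected intestinal tract of mice, in 38 libraries. It is described as a study of mice with colorectal cancer that ate black rice or a control diet. That description does not settle the diet of the WT libraries or how the third set was treated, as given below. The titles sort the libraries into 3 sets with a count table each. The set titled Apc held 18 libraries, 3 each for black rice, control and WT under the letters F and M. The set titled AOM held 12, 3 each for black rice and control under F and M. The other 8 libraries, 4 labelled black rice and 4 control, form the third set and carry no such letter; the name of their table also holds the letters FMT, which no label explains, so how these mice were given each treatment is not known from the labels. The labels do not spell out Apc, AOM, WT, F or M, and they give no genotype, strain, age or hour of collection. The WT libraries carry no treatment label, so their diet is not known from the labels. The labels do not say whether each library came from its own animal, so every p-value below measures the spread between these libraries, which may be technical.

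The mammalian clock is a feedback loop of transcription. BMAL1 pairs with CLOCK or with its relative NPAS2, binds E-boxes, and drives Per, Cry, Nr1d1, Nr1d2, Dbp, Tef, Hlf and Ciart; the PER and CRY proteins then shut BMAL1 and its partner off. NR1D1 and NR1D2 (REV-ERB alpha and beta) compete with ROR receptors at RORE sites and repress Arntl, Npas2, Nfil3 and Cry1, so these genes run in antiphase to Dbp in most mouse tissues, the gut included. In the intestine the loop runs in the epithelium and in the muscle wall, and feeding time can set its phase.

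Depth was 44.8 to 61.9 M counted reads per library in the Apc set, 66.6 to 91.1 M in the third set and 37.9 to 55.1 M in 11 of the AOM libraries. The remaining AOM library, black rice F replicate 3, held 5.37 M reads, and 6 hepatocyte markers summed to 194500 CPM in it (counts per 1000000 counted reads of the library) against at most 145 in any other library. It was left out of every AOM comparison, and values with all 12 libraries are given beside the results they move. Markers of the labelled tissue were present: 9 colon epithelium markers summed to 8800.0 to 39689 CPM and 10 smooth muscle markers to 2403 to 27458 CPM in the other 37 libraries. CPM below uses the raw library total. Log2 differences and their standard errors come from edgeR's quasi-likelihood fit over all genes of a set, and a gene is called when its Benjamini-Hochberg adjusted p over all genes is below 0.05.

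Promoter sequences are shown for 5 members, because they hold the letters of the elements that clock factors bind. RefSeq's promoter table for mouse (GRCm38.p6) matched 24 of the 30 members; Per2, Bhlhe40, Csnk1d, Btrc, Wee1 and Sik1 had no entry. The 250 bases before each listed start were searched on both strands for the E-box CACGTG, for the D-box as TTATGTAA or TTACGTAA, and for the RORE core as TAGGTCA or TGGGTCA. The E-box and the second form of the D-box share the core ACGT, but a position cannot match both. The count tables use GRCm39, and no position below was converted to it. The E-box was found in 6 members, against 6.02% of 32851 mouse promoters. Ciart, on chr3:95882229-95882478 (minus strand), held 3, at 116, 58 and 44 bases before its start. Ciart encodes a repressor of CLOCK and BMAL1, and it is the member that passed the test below. Per1, on chr11:69098699-69098948 (plus strand) for the first of its 2 listed starts, held 1 at 166 bases. Cry1, on chr10:85185055-85185304 (minus strand), held 1 at 60 bases, and it is an Arntl-phase gene. The other members with an E-box were Tef, Bhlhe41 and Fkbp5. The D-box, bound by DBP, TEF, HLF and NFIL3, was found in Per3 and Timeless, against 0.931% of all promoters. Per3, on chr4:151044666-151044915 (minus strand), held 2, at 205 and 158 bases. The RORE core was found in Nfil3 alone, against 5.38% of all promoters: on chr13:52981040-52981289 (minus strand), it lay 12 bases before the start. The sequences run 5′ to 3′ on the gene's own strand and end at the base before the start, with the matched letters in capitals. A match describes the letters of this window and is not a bound site, and the absence of a match says nothing of the factor.
Ciart: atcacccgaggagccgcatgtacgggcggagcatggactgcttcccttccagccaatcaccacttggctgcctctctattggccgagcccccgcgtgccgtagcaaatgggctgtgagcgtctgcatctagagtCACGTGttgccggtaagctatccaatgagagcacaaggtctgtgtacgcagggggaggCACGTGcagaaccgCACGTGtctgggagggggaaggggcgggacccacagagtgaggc
Per1: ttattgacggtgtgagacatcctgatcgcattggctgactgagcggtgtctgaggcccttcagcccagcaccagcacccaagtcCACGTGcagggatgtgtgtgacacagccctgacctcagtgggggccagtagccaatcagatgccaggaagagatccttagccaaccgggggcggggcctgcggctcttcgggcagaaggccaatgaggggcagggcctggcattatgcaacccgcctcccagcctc
Per3: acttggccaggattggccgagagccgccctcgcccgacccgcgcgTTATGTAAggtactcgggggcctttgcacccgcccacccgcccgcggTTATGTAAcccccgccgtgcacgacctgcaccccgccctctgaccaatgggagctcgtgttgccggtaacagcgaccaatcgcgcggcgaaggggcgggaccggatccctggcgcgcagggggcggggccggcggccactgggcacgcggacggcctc
Cry1: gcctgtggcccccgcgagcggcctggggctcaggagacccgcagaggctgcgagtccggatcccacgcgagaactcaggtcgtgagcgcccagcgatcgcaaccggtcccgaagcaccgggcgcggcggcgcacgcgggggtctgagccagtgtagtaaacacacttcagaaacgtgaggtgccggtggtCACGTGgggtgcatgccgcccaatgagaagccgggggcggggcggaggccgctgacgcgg
Nfil3: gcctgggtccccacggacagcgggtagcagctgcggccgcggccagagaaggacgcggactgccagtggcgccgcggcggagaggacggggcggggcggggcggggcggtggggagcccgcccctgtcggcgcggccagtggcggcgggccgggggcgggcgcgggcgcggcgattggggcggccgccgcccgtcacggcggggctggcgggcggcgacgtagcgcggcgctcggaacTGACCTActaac

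Compared per kilobase of exon, the members spanned a wide range of levels. In the Apc set the median level was highest for Bhlhe40, a repressor that binds E-boxes, at 26.4 CPM per kb, followed by Nr1d2 at 24.9 and Per2 at 23.7, and lowest for Fbxl21, an F-box protein of CRY turnover, at 0.145 CPM per kb. Dbp lay at 5.94 CPM per kb and Arntl at 3.39 in that set. Nr1d1 was lower in the Apc set, with a median of 8.33 CPM per kb, than in the AOM set at 26.9 and the third set at 43.1. Nr1d2, Per2 and Tef went the other way, at 24.9, 23.7 and 16.6 CPM per kb in the Apc set and 10.4, 10.1 and 10.03 in the AOM set. The sets have separate tables, and these differences between sets were not tested. The reads may include those of overlapping genes on the other strand, which cover 18.01% of the exon bases of Dbp (Sphk2), 8.55% of Nr1d1 (Thra), 8.30% of Usp2 and 19.1% of Bhlhe41 (Gm43909) in the GRCm38 annotation; no strand option stands in the counting commands that the tables record.

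In the Apc set, black rice libraries lay above control libraries in 10 of the 11 Dbp-phase genes and below them in 4 of the 5 Arntl-phase genes. The median log2 difference was 0.60 over the Dbp-phase genes and -0.57 over the Arntl-phase genes, against -0.01 over all 21624 genes tested. The largest were Ciart at 1.11 (SE 0.23), Dbp at 1.10 (SE 0.26), Nr1d1 at 0.95 (SE 0.23), Nfil3 at -1.08 (SE 0.40) and Arntl at -0.92 (SE 0.29), 6 libraries against 6. edgeR called 0 of the 30 members, against 0.0139% of all genes. At an unadjusted p below 0.05 there were 9 members higher and 3 lower, against 4.21% and 6.06% of all genes, and DESeq2 called 5, all higher (Dbp, Hlf, Nr1d1, Nr1d2 and Ciart). The shares of all genes called, here and below, are those of edgeR. DESeq2's own share is not given, so its counts of members cannot be read against them. The 6 black rice and 6 control ranges overlapped for every member, where 0.143% of all genes had all black rice libraries higher and 0.666% all lower. In the same comparison 10 of 10 smooth muscle markers lay higher (summed 3411 to 6576 CPM with black rice, 2724 to 3977 in controls), and 7 of 7 B and plasma cell, 6 of 6 T cell and 6 of 6 macrophage markers lay lower, with medians of -1.20, -0.92 and -0.55. With the mean log2 level of the smooth muscle markers as a covariate the Dbp-phase median was 0.79 and the Arntl-phase median -0.71; the part of the immune markers was not tested. In bulk tissue, fewer cells of a type and less RNA per cell cannot be told apart, nor can diet and an unrecorded hour of collection.

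Within M libraries alone the comparison reached the threshold for Ciart. Ciart measured 2.24, 3.36 and 2.16 CPM in the control M libraries and 11.04, 11.3 and 10.7 in the black rice M libraries. The ranges did not overlap, and Ciart rose 4.33-fold with black rice (log2 2.11 (SE 0.33), edgeR Benjamini-Hochberg adjusted p = 0.049, 3 libraries against 3). It was the only member called, against 0.0324% of all genes. Ciart in F libraries was 3.93, 2.51 and 5.87 CPM in controls and 4.11, 3.85 and 5.49 with black rice, ranges that overlapped. In WT it was 11.1, 10.7 and 6.503 CPM in F and 5.76, 5.31 and 10.7 in M. The 4 lowest of the 18 libraries were the 3 control M libraries and control F replicate 2. The call stood at the edge of the threshold: the adjusted p was 0.16 with the compared groups alone, 0.21 with the smooth muscle covariate and from 0.030 to 0.35 with 1 library left out, and it was over 0.05 without any 1 of the 6 black rice and control M libraries, black rice F replicate 2, control F replicate 1, WT F replicates 1 and 2 and WT M replicates 2 and 3. The log2 difference itself stayed between 1.94 and 2.41 in these fits. In the same M libraries 10 of 10 smooth muscle markers lay higher with black rice (summed 3411 to 5349 CPM against 2724 to 3977), and 6 of 6 T cell and 6 of 6 macrophage markers lay lower (macrophage markers summed to 106 to 257 CPM against 178 to 315). All 6 hepatocyte markers lay lower with black rice M too, with a median of -1.14 and summed levels of 26.1 to 53.2 CPM against 24.3 to 145.3. Of 8 glucocorticoid-responsive genes 7 lay lower, with a median of -0.77 and summed levels of 342 to 398 CPM against 613 to 863, ranges that did not overlap. The part of the immune markers, the hepatocyte markers and the glucocorticoid-responsive genes was not tested.

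The PAR-domain activators also lay higher with black rice in M libraries, without passing the test. Dbp, a direct E-box target whose protein drives D-box genes, measured 4.83, 10.4 and 9.91 CPM in control M and 32.3, 23.2 and 24.2 in black rice M libraries, and 8.104, 10.47 and 15.4 against 8.75, 15.4 and 24.1 in F. The M ranges did not overlap and the F ranges did; WT held 21.7, 30.7 and 15.2 CPM in F and 22.6, 20.1 and 27.3 in M. The log2 difference was 1.70 (SE 0.37) in M, with an edgeR adjusted p of 0.17, and 0.49 (SE 0.36) in F. Tef, a relative of Dbp, measured 68.6, 74.1 and 107 CPM in control M, 134, 146 and 132 in black rice M, 73.7, 94.8 and 129 in control F and 96.7, 145 and 167 in black rice F libraries, with 162, 141 and 114 in WT F and 143, 88.6 and 152 in WT M. All 3 black rice M libraries of Tef lay above the control M libraries. Hlf, the third of the family, measured 10.9, 8.03 and 10.8 CPM in control M, 12.6, 14.5 and 16.5 in black rice M, 7.21, 11.8 and 13.9 in control F and 13.5, 17.4 and 17.9 in black rice F libraries, with 17.9, 18.1 and 13.3 in WT F and 15.8, 10.9 and 16.7 in WT M. Its difference was log2 0.57 in F and 0.59 in M, neither past the threshold.

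Both REV-ERB genes lay higher with black rice under each letter. Nr1d1 measured 18.8, 21.3 and 10.9 CPM in control M and 51.01, 32.9 and 46.3 in black rice M libraries, which did not overlap, and 15.4, 11.2 and 19.7 against 14.2, 21.9 and 30.7 in F, which did. WT held 33.2, 45.1 and 21.9 CPM of Nr1d1 in F and 29.8, 29.3 and 40.6 in M. The log2 difference of Nr1d1 was 1.39 (SE 0.33) in M and 0.50 (SE 0.33) in F. Nr1d2, the REV-ERB beta gene, had the larger difference in F, at 0.96 (SE 0.20) against 0.58 (SE 0.20) in M. The F-minus-M difference of Nr1d2 was 0.38 (SE 0.28), edgeR adjusted p = 0.73. Nr1d2 measured 62.5, 79.6 and 98.9 CPM in control F, 115, 154 and 203 in black rice F, 81.6, 91.99 and 117 in control M and 152, 138 and 131 in black rice M libraries, with 147, 163 and 139 in WT F and 167, 104 and 169 in WT M. Over both letters Nr1d2 had the lowest adjusted p of the members, 0.12 by edgeR, for a log2 difference of 0.77 (SE 0.14).

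The Period genes, whose proteins carry the negative arm of the loop, lay higher with black rice by smaller amounts. Per1 measured 28.9, 21.8 and 42.5 CPM in control F, 53.1, 43.4 and 52.4 in black rice F, 53.9, 36.2 and 38.8 in control M and 47.2, 57.8 and 52.8 in black rice M libraries, with 70.1, 53.3 and 43.3 in WT F and 57.4, 36.3 and 62.3 in WT M. Its difference was log2 0.50 (SE 0.15) over both letters. Per2 measured 94.7, 148 and 189.7 CPM in control F, 191, 121 and 185 in black rice F, 85.6, 87.4 and 124 in control M and 129.6, 169 and 108 in black rice M libraries, with 174, 159 and 177 in WT F and 109, 61.8 and 208 in WT M. Per2 differed by log2 0.35 (SE 0.22), the least of the 3. Per3 measured 40.98, 52.2 and 83.9 CPM in control F, 65.1, 89.4 and 126 in black rice F, 48.9, 31.7 and 71.3 in control M and 64.4, 82.1 and 65.7 in black rice M libraries, with 80.6, 62.7 and 70.7 in WT F and 80.6, 29.3 and 87.3 in WT M. Its difference was log2 0.60 (SE 0.23), and none of the 3 passed the test. Usp2, an output gene for a deubiquitinase of clock proteins, differed by 0.11, and Bhlhe41, a repressor at E-boxes, was the Dbp-phase gene that lay lower, at -0.47 over both letters, -1.05 in F and 0.12 in M.

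The activator arm lay the other way in M libraries. Arntl, which encodes BMAL1, measured 73.1, 41.9 and 21.3 CPM in control M and 17.9, 14.1 and 9.75 in black rice M libraries. The 2 groups did not overlap, and the log2 difference was -1.64 (SE 0.41) with an edgeR adjusted p of 0.28. In F libraries Arntl was 34.9, 43.3 and 30.98 CPM in controls and 26.3, 31.3 and 39.4 with black rice, ranges that overlapped, with 24.7, 22.7 and 22.4 in WT F and 37.4, 18.3 and 12.4 in WT M. Npas2, the alternative partner of BMAL1, measured 42.5, 17.7 and 12.995 CPM in control M and 13.96, 7.78 and 7.69 in black rice M libraries, 13.4, 15.8 and 8.59 in control F and 13.5, 13.7 and 13.8 in black rice F, and 11.03, 9.18 and 12.8 in WT F and 9.03, 5.16 and 5.3999 in WT M. Control M replicate 1 held the highest value of both genes. Without that library the Arntl-phase median moved from -1.23 to -0.60 in M and from -0.57 to -0.24 over both letters. Nfil3, a repressor at D-boxes, measured 9.42, 6.09 and 11.04 CPM in control M, 1.97, 2.53 and 4.37 in black rice M, 13.9, 8.07 and 3.26 in control F and 7.41, 7.11 and 2.34 in black rice F libraries, with 3.02, 2.79 and 5.63 in WT F and 2.31, 4.61 and 2.12 in WT M. Its log2 difference was -1.54 (SE 0.57) in M and -0.62 (SE 0.56) in F. Cry1, a repressor of the loop that is delayed by its RORE elements, measured 25.7, 22.6 and 25.4 CPM in control M, 20.3, 19.4 and 17.1 in black rice M, 27.8, 30.7 and 23.8 in control F and 29.5, 25.4 and 25.2 in black rice F libraries, with 28.6, 26.97 and 25.2 in WT F and 19.2, 17.3 and 21.7 in WT M. Clock, which oscillates little in many tissues, measured 187, 114 and 107 CPM in control M, 97.7, 121 and 130.3 in black rice M, 88.7, 146 and 145 in control F and 143, 147 and 198 in black rice F libraries, with 137, 138 and 106 in WT F and 158, 81.9 and 133 in WT M. Over both letters Cry1 differed by log2 -0.19 and Clock by 0.09, small against Arntl at -0.92.

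**Figure D1:**
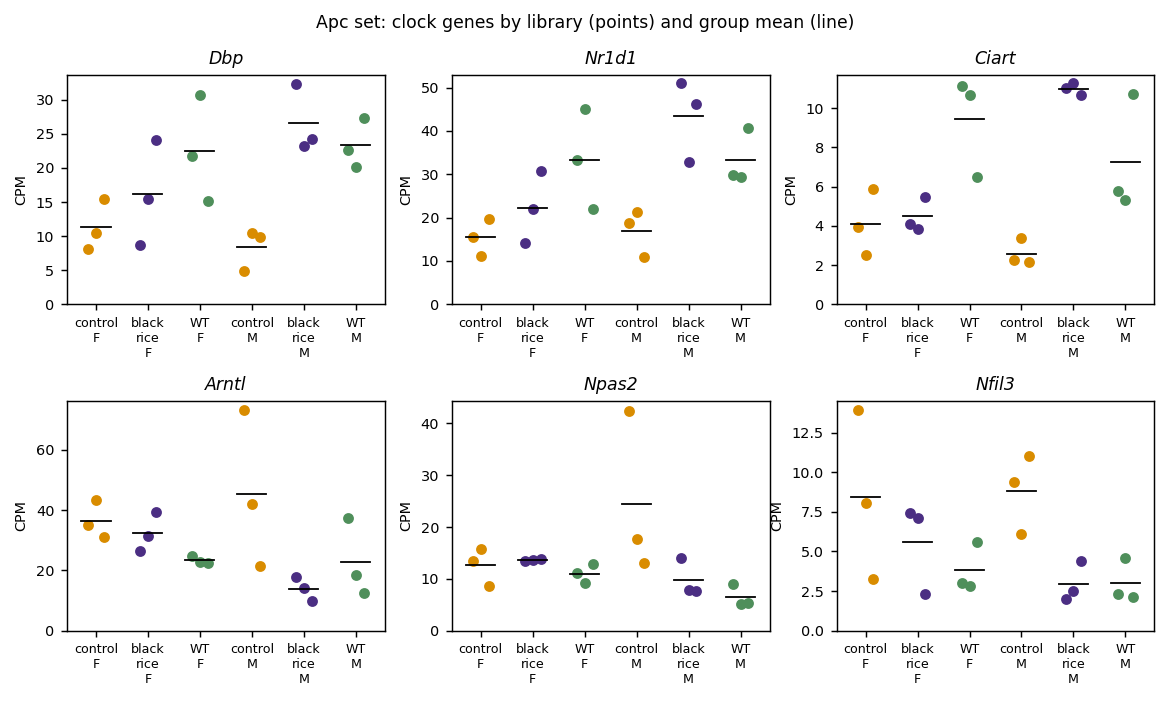
Level of 6 clock genes in the 18 Apc libraries, in CPM on a linear axis from 0, by treatment and letter; each point is 1 library and each line a group mean. The control M group has the lowest mean of Ciart, 2.59 CPM against 10.99 in black rice M, and control M replicate 1 stands highest for Arntl (73.1 CPM) and Npas2 (42.5 CPM).

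In M libraries all 11 Dbp-phase genes lay higher with black rice and all 5 Arntl-phase genes lower, with medians of 0.58 and -1.23. At an unadjusted p below 0.05 there were 7 members higher and 4 lower in M, against 3.67% and 4.86% of all genes; all 4 lower ones were Arntl-phase, and DESeq2 called Dbp, Nr1d1 and Ciart higher and Arntl lower. In 7 members every black rice M library lay above every control M library, and in 3 every one lay below, against 4.82% and 8.65% of all genes. In F, 9 of the 11 Dbp-phase genes lay higher and 3 of the 5 Arntl-phase genes lower, with medians of 0.49 and -0.05, and the Dbp-phase median was 0.24 without black rice F replicate 3. edgeR called 0 members in F, against 0% of all genes, with 7 higher and 1 lower at an unadjusted p below 0.05 (4.51% and 5.73% of all genes); DESeq2 called Nr1d2 higher and Bhlhe41 lower. In F, 5 members had all black rice libraries higher and 1 had all lower, against 9.32% and 10% of all genes. In the same F libraries 7 of 7 B and plasma cell markers lay lower with black rice, with a median of -2.23. All 6 T cell and 6 macrophage markers lay lower too. All 10 smooth muscle and 6 hepatocyte markers lay higher, with medians of 0.50 and 0.43. The F-minus-M difference of the diet difference was tested directly: edgeR called 0 members (0% of all genes), with 4 higher and 4 lower at an unadjusted p below 0.05, against 4.31% and 4.58%. It was largest for Ciart, at log2 -2.01 (SE 0.45) with an edgeR adjusted p of 0.23, and DESeq2 called Ciart alone. Arntl stood at 1.45 (SE 0.57), Npas2 at 1.33 (SE 0.54) and Dbp at -1.21 (SE 0.51), none past the threshold. In the comparison of F with M averaged over treatments, edgeR called 0 members against 0.074% of all genes, 1 was higher and 4 lower in F at an unadjusted p below 0.05 (6.72% and 8.35% of all genes), none had separate ranges (0.0462% of all genes in each direction), and DESeq2 called Cry1, at log2 0.27. All 7 immediate early genes lay lower in F there, with a median of -1.26, and all 6 macrophage markers, with a median of -0.15. Of 6 T cell markers 5 lay higher in F, with a median of 0.64, and of 6 hepatocyte markers 5, with a median of 0.47. The part of these lists was not tested.

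Control libraries of the Apc set were also compared with WT libraries, and the fitted differences of the phase genes mostly lay in the opposite direction to the diet difference. This comparison and that of black rice with control share the 6 control libraries, so a common deviation of those libraries enters both, and neither supports the other. All 11 Dbp-phase genes lay lower in controls than in WT and all 5 Arntl-phase genes higher, with medians of -0.60 and 0.77 against 0.0045 over all genes. The largest were Ciart at -1.37 (SE 0.23), Dbp at -1.28 (SE 0.26), Nr1d1 at -1.08 (SE 0.23), Nfil3 at 1.28 (SE 0.40) and Npas2 at 0.99 (SE 0.27). edgeR called 0 members (0% of all genes), with 4 higher and 9 lower at an unadjusted p below 0.05, against 2.21% and 2.03% of all genes, and DESeq2 called Dbp, Hlf, Nr1d1, Nr1d2 and Ciart lower. Ranges of the 6 and 6 libraries separated for Nr1d1 alone, lower in every control library, where 0.0509% of all genes were all lower and 0.217% all higher. All 10 smooth muscle markers lay lower in controls than in WT, and all B and plasma cell, T cell and macrophage markers lay higher. Of 6 hepatocyte markers 5 lay higher in controls, with a median of 0.83 and summed levels of 24.3 to 145.3 CPM against 38.8 to 117.9 in WT. With the smooth muscle covariate the medians of the Dbp-phase and Arntl-phase genes were -0.72 and 0.80. The part of the immune and hepatocyte markers was not tested. Averaged over both letters, black rice against WT gave small differences, with medians of -0.10 and 0.10. Dbp lay at -0.18 (SE 0.25), Ciart at -0.26 (SE 0.22), Nr1d1 at -0.13 (SE 0.23) and Arntl at -0.15 (SE 0.28). edgeR and DESeq2 both called 0 members there (0.0139% of all genes by edgeR); 2 were higher and 1 lower at an unadjusted p below 0.05, against 3.28% and 4.89%, and no ranges separated, against 0.0647% higher and 0.282% lower. A p above the threshold does not show that black rice and WT libraries had the same clock gene levels. Behind the average the letters lay on opposite sides of WT. The log2 ratio of Dbp to Arntl CPM averaged -1.10 in black rice F and -0.10 in WT F libraries. In M it averaged 0.96 with black rice and 0.18 in WT. Black rice and WT were not tested by letter.

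In the AOM set the diet comparison over both letters gave near-zero medians, -0.04 for the Dbp-phase and -0.04 for the Arntl-phase genes. edgeR called 0 members (0% of all genes) and DESeq2 0; none reached an unadjusted p below 0.05, where 0.754% of all genes were higher and 2.31% lower, and none had separate ranges, against 0.0411% and 0.0548%. With all 12 libraries these medians were 0.09 and 0.05, and the sign of each also turned when single libraries were left out, so no direction is read from them. F and M libraries lay on opposite sides, and separate F and M comparisons were added after that had been seen.

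In M libraries of the AOM set the clock genes again lay in 2 opposed groups. Dbp measured 24.1, 10.47 and 26.5 CPM in control M and 66.1, 65.9 and 46.3 in black rice M libraries. The ranges did not overlap, and the log2 difference was 1.67 (SE 0.58), edgeR adjusted p = 0.33. Ciart measured 10.1, 4.77 and 9.36 CPM in control M and 17.1, 16.6 and 16.9 in black rice M libraries. Nr1d1, the REV-ERB alpha gene, measured 113, 43.3 and 82.9 CPM in control M and 119, 122 and 104 in black rice M libraries. The Ciart ranges did not overlap, and those of Nr1d1 did. Per2 measured 60.2, 58.9 and 78.9 CPM in control M and 43.5, 62.6 and 80.1 in black rice M libraries, with no difference in the fit beyond its SE of 0.37. On the activator side, Arntl measured 14.3, 16.6 and 19.6 CPM in control M and 3.67, 4.22 and 15.2 in black rice M libraries. Npas2 measured 12.5, 9.58 and 25.9 CPM in control M and 7.51, 7.98 and 8.96 in black rice M libraries. Their log2 differences were -1.10 (SE 0.43) and -0.83 (SE 0.31), and the 2 ranges separated for Npas2 but not for Arntl. Black rice M replicates 1 and 2 held the lowest Arntl values of all 38 libraries, at 3.67 and 4.22 CPM. Over M libraries 10 of 11 Dbp-phase genes lay higher with black rice, Nr1d2 being the exception at -0.39, and all 5 Arntl-phase genes lower, with medians of 0.52 and -0.86 against -0.07 over all genes. edgeR called 0 members and DESeq2 0 (0% of all genes by edgeR); 2 were higher and 6 lower at an unadjusted p below 0.05, against 5.42% and 8.37% of all genes. In 5 members all black rice M libraries were higher and in 5 all were lower, against 7.03% and 7.28%. In the same libraries 7 of 7 B and plasma cell and 6 of 6 macrophage markers lay lower with black rice, with medians of -0.68 and -0.65, and 8 of 9 epithelial markers lay higher. There 9 of 10 smooth muscle markers lay lower, with a median of -0.22, and 3 of the 4 hepatocyte markers tested lay lower, with a median of -2.02; the part of these lists was not tested.

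In F libraries of the AOM set, 2 black rice libraries against 3 controls, the groups lay the other way round. Dbp measured 8.94, 25.2 and 19.7 CPM in control F and 2.75 and 13.7 in the 2 black rice F libraries, ranges that overlapped. Ciart measured 3.88, 6.72 and 6.01 CPM in control F and 2.12 and 3.36 in black rice F libraries, both of them below the 3 controls. Nr1d1 measured 32.97, 82.03 and 77.98 CPM in control F and 33.03 and 128 in black rice F libraries. Per2 measured 25.7, 23.4 and 67.7 CPM in control F and 17.2 and 27.7 in black rice F libraries. The ranges of Nr1d1 and Per2 overlapped. Arntl measured 17.8, 10.6 and 19.002 CPM in control F and 27.7 and 36.2 in black rice F libraries. Npas2 measured 8.89, 13.4 and 11.3 CPM in control F and 17.8 and 27.3 in black rice F libraries. For Arntl and Npas2 both black rice F libraries lay above the 3 controls. The log2 differences were -1.13 (SE 0.65) for Dbp, -1.01 (SE 0.39) for Ciart, 1.02 (SE 0.46) for Arntl and 1.01 (SE 0.34) for Npas2. Of the Dbp-phase genes 10 of 11 lay lower with black rice and of the Arntl-phase genes 5 of 5 higher, with medians of -0.77 and 0.44. edgeR and DESeq2 each called 0 members (0% of all genes by edgeR), and 1 was higher and 1 lower at an unadjusted p below 0.05, against 1.11% and 2.16% of all genes. Ranges separated for 2 members higher and 2 lower, against 8.38% and 11.1% of all genes, counts that are near those shares of 30. The Dbp-phase median was -0.38 without black rice F replicate 1, -1.37 without black rice F replicate 2 and -0.35 without control F replicate 3; with all 12 libraries the medians were -0.62 and 0.93. All 7 B and plasma cell, 6 T cell and 6 macrophage markers lay lower with black rice in F, with medians of -2.08, -0.98 and -0.72, and their part was not tested. The F-minus-M difference of the diet difference had medians of -1.29 and 1.53; it was -2.80 (SE 0.88) for Dbp, -2.16 (SE 0.52) for Ciart and 2.12 (SE 0.63) for Arntl, and the Dbp-phase median was -0.84 without black rice F replicate 1. edgeR called 0 members for that difference (0% of all genes), with 5 higher and 5 lower at an unadjusted p below 0.05 (7.44% and 6.54% of all genes), and DESeq2 called Ciart. Averaged over diets, all 11 Dbp-phase genes lay lower in F than in M, with a median of -1.18, and 4 of 5 Arntl-phase genes higher, with a median of 0.39. Ciart led at -1.70 (SE 0.27), edgeR adjusted p = 0.15, then Dbp at -1.64 (SE 0.44), Tef at -1.37 (SE 0.32) and Per2 at -1.22 (SE 0.28). edgeR called 0 members (0.0365% of all genes), 3 were higher and 10 lower at an unadjusted p below 0.05, against 5.6% and 2.84%, none had separate ranges (0.443% and 0.0548% of all genes), and DESeq2 called Dbp, Tef, Per2 and Ciart lower in F. Without control F replicate 3 edgeR called Per2, at an adjusted p of 0.036. For Dbp the letters lay apart with black rice, with means of 8.21 CPM in F and 59.4 in M. In controls its means were closer, at 17.9 and 20.4 CPM. Per2 was lower in F in both arms, at 22.5 and 62.1 CPM with black rice and 38.9 and 66.0 in controls. The F and M letters were not tested within each arm. All 9 epithelial markers lay lower in F than in M, with a median of -0.51, and all B and plasma cell, T cell and macrophage markers higher, with medians of 1.72, 0.98 and 0.98. Of the 4 hepatocyte markers tested 3 lay higher in F, with a median of 1.84. The 6 hepatocyte markers listed summed to 49.9 to 99.5 CPM in F and 7.24 to 105.4 in M. All 7 immediate early genes lay higher in F, with a median of 0.62. The part of these lists in the clock difference was not tested.

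The third set, 4 black rice against 4 control libraries with no letter, gave the same opposed groups without a call by edgeR. Dbp measured 14.9, 40.4, 22.7 and 17.04 CPM in the control libraries 1 to 4 and 41.98, 27.02, 37.4 and 60.6 in the black rice libraries. Control replicate 2 lay inside the black rice range and the other 3 below it. Ciart measured 2.17, 8.33, 3.98 and 6.63 CPM in controls and 12.9, 7.91, 10.7 and 18.8 with black rice. Nr1d1 measured 81.1, 129.99, 80.3 and 123 CPM in controls and 167, 145, 136 and 190.4 with black rice. Per2 measured 12.9, 25.02, 28.9 and 38.01 CPM in controls and 27.2, 38.5, 47.3 and 55.7 with black rice. All 4 black rice libraries lay above all 4 controls for Nr1d1, while the ranges of Ciart and Per2 overlapped. Arntl measured 62.3, 29.7, 53.9 and 32.6 CPM in controls and 23.6, 32.9, 28.7 and 25.8 with black rice. Npas2 measured 49.5, 26.3, 22.9 and 23.9 CPM in controls and 21.1, 25.01, 18.3 and 20.9 with black rice. Control replicate 1 was the highest library for Arntl and Npas2 and the lowest for Dbp. All 11 Dbp-phase genes lay higher with black rice and 4 of 5 Arntl-phase genes lower, with medians of 0.75 and -0.73 against 0.01 over all genes; without control replicate 1 the Arntl-phase median was -0.48. The largest log2 differences were Ciart at 1.18 (SE 0.40), Bhlhe41 at 1.03 (SE 0.32), Hlf at 1.01 (SE 0.41), Nfil3 at -0.88 (SE 0.28), Per3 at 0.81 (SE 0.25) and Tef at 0.77 (SE 0.24). edgeR called 0 members (0% of all genes); the smallest adjusted p was 0.44, for Nr1d2 at 0.75 (SE 0.14), which DESeq2 called. At an unadjusted p below 0.05 there were 8 members higher and 4 lower, against 4.12% and 3.81% of all genes. In 4 members all black rice libraries were higher and in 1 all lower, against 3.13% and 1.56%. All 6 macrophage markers lay lower with black rice, with a median of -0.49, and 7 of 7 B and plasma cell markers higher, with a median of 0.67; their part was not tested.

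The 3 sets share no library, so signs can be set side by side. In Apc M, AOM M and the third set, 10 of 11 Dbp-phase genes lay higher with black rice in all 3 comparisons, Nr1d2 being the exception, where 7.54% of 19794 genes tested in all 3 did so. Of the Arntl-phase genes 4 of 5, all but Clock, lay lower in all 3, where 9.39% of all genes did. These 3 comparisons were put together after the AOM letters had been seen to differ. Over both letters of the Apc set and the third set, 10 of 11 Dbp-phase genes, all but Bhlhe41, lay higher in both, against 31.2% of 20201 genes, and Arntl, Npas2, Cry1 and Nfil3 lower in both, against 31%. In the F libraries of the Apc and AOM sets 1 Dbp-phase gene, Nr1d1, lay higher in both and 2, Usp2 and Bhlhe41, lower in both, against 33% and 31.2% of 20540 genes. Genes of 1 loop are not independent of each other, so these counts carry no p-value.

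**Figure D2:**
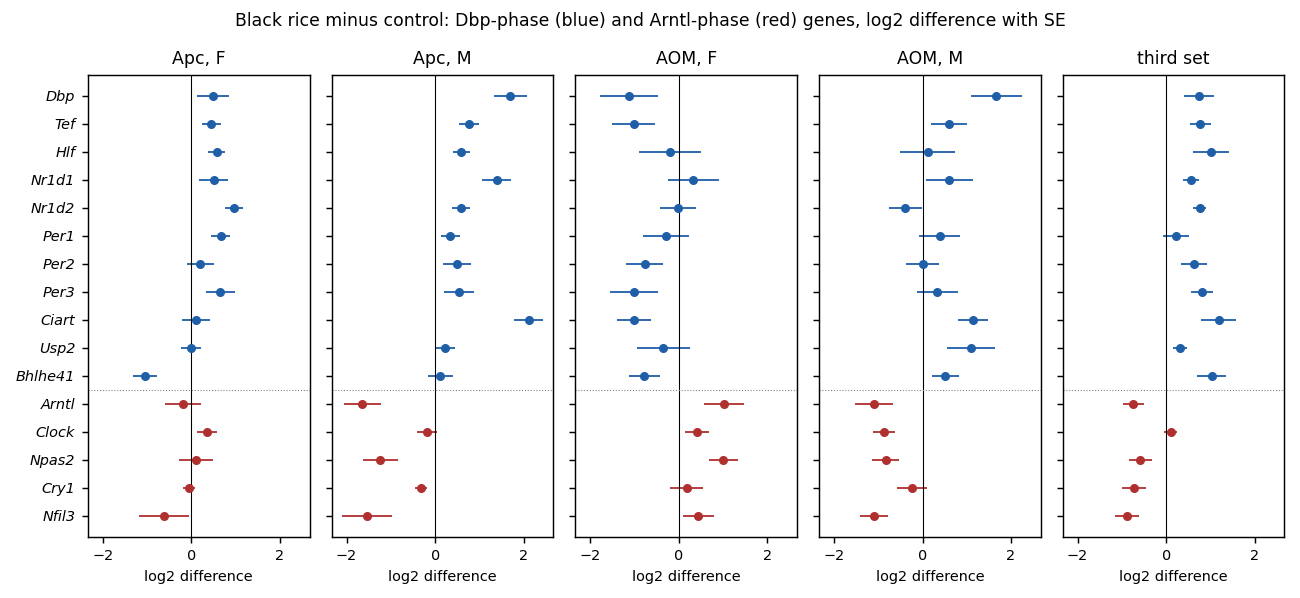
Log2 difference of black rice against control for the 16 phase genes in Apc F, Apc M, AOM F, AOM M and the third set; points are edgeR estimates and bars 1 standard error. Dbp lies at 1.70 in Apc M, 1.67 in AOM M and 0.74 in the third set but at -1.13 in AOM F, and Arntl at -1.64, -1.10, -0.74 and 1.02.

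Across the libraries of each set Dbp and Arntl ran against each other, but only weakly within groups in the Apc and AOM sets. The log2 ratio of Dbp to Arntl CPM averaged -2.03 ± 1.05 (SD) in the 6 Apc controls, -0.07 ± 1.18 in the 6 black rice and 0.04 ± 0.69 in the 6 WT libraries. It ranged from -3.92 in Apc control M replicate 1 to 1.31 in black rice M replicate 3. In the AOM set it ran from -3.33 in black rice F replicate 1 to 4.17 in black rice M replicate 1, a wider span than in the other sets, with a mean of 3.25 ± 1.42 in black rice M and 0.18 ± 0.74 in control M. In the third set it averaged -0.95 ± 1.04 in 4 controls and 0.54 ± 0.65 in 4 black rice libraries. Across the 18 Apc libraries, log2 levels of Dbp and Arntl gave Pearson's r = -0.65 and Spearman's rho = -0.57 (permutation p adjusted over 9 relations = 0.00969 and 0.0346, two-sided, 0.00323 and 0.0142 unadjusted). With group means removed r was -0.16, and without control F replicate 1 and control M replicate 1, the libraries farthest from the median of Dbp, it was -0.48. Across the 11 AOM libraries the values were Pearson's r = -0.75 and Spearman's rho = -0.70 (permutation, adjusted p = 0.0179 and 0.0377), with r = -0.16 within groups and -0.68 without the 2 farthest libraries. With all 12 libraries r was -0.48. Across the 8 libraries of the third set they were Pearson's r = -0.78 and Spearman's rho = -0.88 (exact permutation test, adjusted p = 0.0284 and 0.0326), with r = -0.61 within groups and -0.61 without the 2 farthest. Within groups r was thus closer to 0 in the Apc and AOM sets than in the third set. The permutations shuffled libraries across groups, so all p-values of these relations include differences between group means. Dbp and Nr1d1 tracked each other by the same measure, at r = 0.85, 0.81 and 0.80 in the 3 sets (exact or sampled permutation, adjusted p = 0.00018, 0.00693 and 0.0284). The first rests on an unadjusted permutation p of 2e-05. Within groups r of this pair was 0.61, 0.97 and 0.61. Spearman's rho for that pair was 0.92, 0.67 and 0.83 (exact or sampled permutation, adjusted p = 0.00018, 0.03996 and 0.0346), and r without the 2 libraries farthest from the median of Dbp was 0.94, 0.71 and 0.54. Nr1d1 and Npas2, a repressor and its target, gave r = -0.46, 0.03 and -0.61, none past the threshold (permutation, adjusted p = 0.0661, 0.926 and 0.118), with Spearman's rho of -0.43, -0.02 and -0.50 (permutation, adjusted p = 0.102, 0.969 and 0.243) r of 0.02, 0.59 and -0.35 within groups, and r of -0.47, 0.07 and -0.37 without the 2 libraries farthest from the median of Nr1d1. Depth and composition are shared by the genes of a library.

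**Figure D3:**
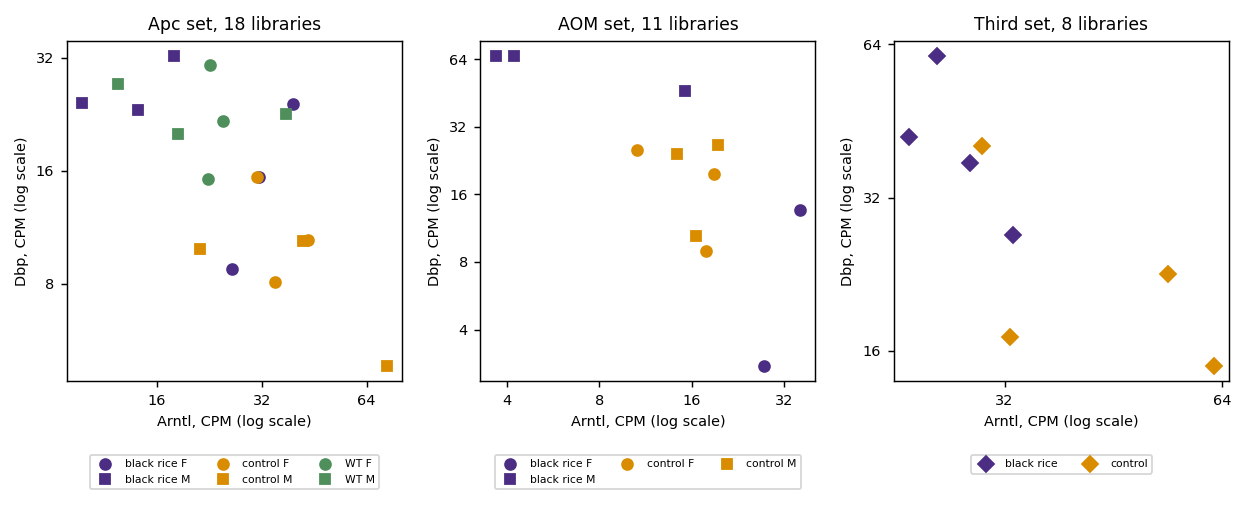
Dbp against Arntl in each library of the 3 sets, both axes in CPM on a log scale; each point is 1 library, coloured by treatment. Black rice M libraries of the AOM set lie at high Dbp (46.3 to 66.1 CPM) and low Arntl (3.67 to 15.2 CPM), and Apc control M replicate 1 at the opposite corner with 4.83 and 73.1 CPM.

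**Figure D4:**
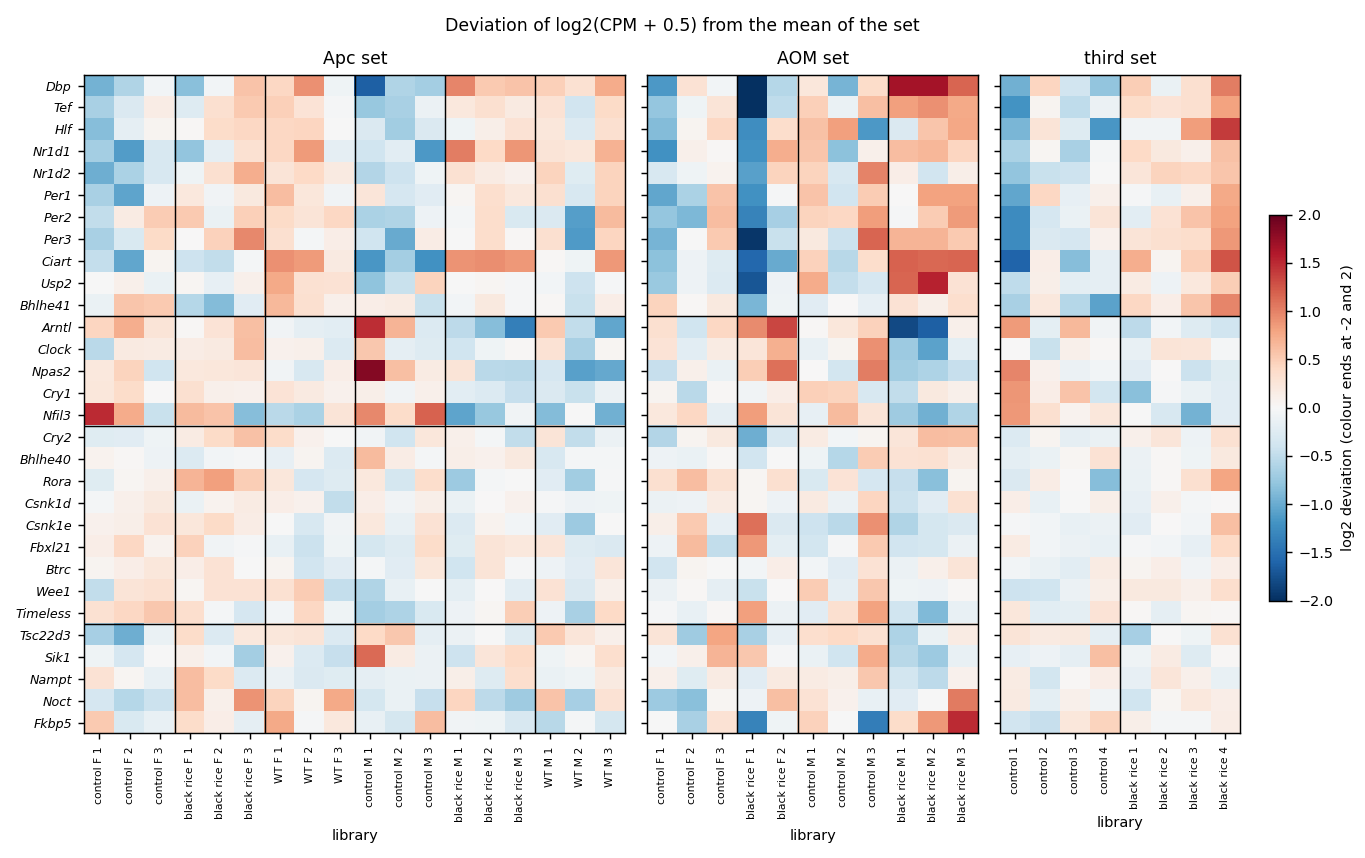
Deviation of each of the 30 members from its mean over the libraries of its set, as log2(CPM + 0.5), with colour ends at -2 and 2; columns are libraries and rows are genes by role. The Dbp-phase and Arntl-phase blocks mostly take opposite colours in AOM black rice M and in Apc control M libraries. Exceptions include Usp2 (40.6 CPM, above its set mean) and Arntl (21.3 CPM, below it) in Apc control M replicate 3. Nr1d2 (41.2 CPM, below its set mean) in AOM black rice M replicate 2 is a further exception. The regulators show paler colours.

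Likeness to Dbp was ranked over all genes with a mean of at least 5 CPM, as Spearman's rho of levels across libraries, and is given as a description. In the Apc set, among 12022 genes, Nr1d1 ranked 1 with rho = 0.92, Ciart 2 (0.78), Nr1d2 3 (0.76), Tef 5 (0.75) and Hlf 12 (0.69), while Nfil3 was the lowest of all at -0.89 and Arntl lay at -0.57. In the AOM set, among 11707 genes, Tef ranked 4 with rho = 0.95, Ciart 5 (0.94), Cry2 30 (0.87) and Per3 44 (0.85), and Nr1d1 ranked 468 (0.67). Nr1d2 ranked 1864 (0.39) and Hlf 2963 (0.20) there. In the third set, among 11660 genes, Ciart ranked 3 with rho = 0.95, and Tef and Usp2 tied at 29 (0.90). Hlf ranked 57 (0.88), Nr1d1 132 (0.83) and Nr1d2 1027 (0.60) in that set. Nfil3 fell under the 5 CPM limit in the AOM set and the third set, so it was not ranked there. Its rho was -0.72 and -0.48 in those sets. Per2 ranked 1058 (0.28) in the Apc set, 1055 (0.55) in the AOM set and 2653 (0.40) in the third set. Ciart and Tef were thus near the top in each set, and Usp2 in the AOM set and the third set but not in the Apc set, where its rho was 0.21. The 10 genes outside the set most like Dbp in the Apc libraries were Mthfd1l (0.76), Ext1, Scnn1a, Ephb3, Hif1a, Gm5884, Camk1d, Sema5a, Acvr1 and Acat2 (0.68). Their rho with Dbp ran from -0.63 to 0.42 in the AOM set and from -0.43 to 0.43 in the third set, so the likeness of these 10 did not recur there.

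**Figure D5:**
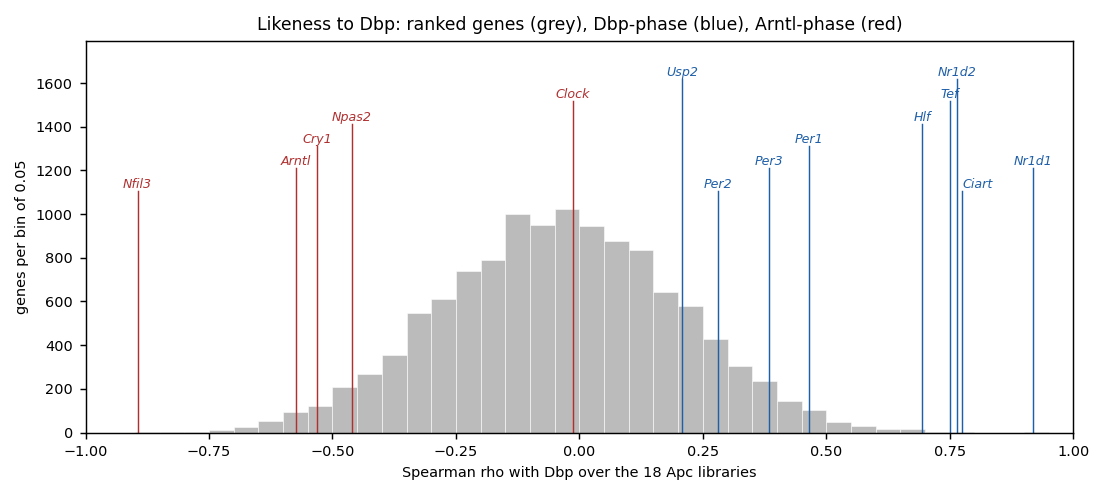
Histogram of Spearman's rho with Dbp over the 18 Apc libraries for 12022 genes, with the members marked; the x axis is rho and the y axis the number of genes. Nr1d1 stands at the right end at 0.92 and Nfil3 at the left end at -0.89.

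The 9 regulators lay close to 0 over both letters. Their median log2 difference with black rice was 0.07 in the Apc set, -0.01 in the AOM set and 0.07 in the third set. Cry2, a repressor partner of PER, differed by 0.57 in Apc F and -0.55 in AOM F. Rora, the activator at ROREs, differed by 0.71 (SE 0.21) in Apc F and -0.30 (SE 0.21) in Apc M, and Timeless, better known for replication fork protection, by 0.77 (SE 0.24) in Apc M and -0.75 (SE 0.30) in AOM M. Group means of Timeless were 10.95 ± 2.52 CPM (SD, n = 3) with black rice and 6.603 ± 0.986 in controls of Apc M, and 5.87 ± 1.58 and 10.7 ± 3.85 in AOM M. Wee1, a kinase gene that links the clock to mitosis, differed by 0.14, -0.21 and 0.37 in the 3 sets and Bhlhe40 by -0.11, 0.12 and -0.06. The casein kinases Csnk1d and Csnk1e, which phosphorylate PER, and Btrc, which marks PER for decay, stayed between -0.11 and 0.16 over the 3 sets. Fbxl21, the scarcest member, differed by 0.07 (SE 0.28), -0.01 (SE 0.40) and 0.07 (SE 0.25). No regulator was called by edgeR or DESeq2 in any of these comparisons.

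The 5 outputs gave no common direction. Noct, a rhythmic phosphatase gene of lipid absorption, had the largest Apc difference, at 0.60 (SE 0.23) over both letters and 0.998 (SE 0.33) in F, with group means of 89.6 ± 23.8 CPM in black rice F and 44.1 ± 3.597 in control F libraries (SD, n = 3). Tsc22d3 and Fkbp5 are glucocorticoid targets. Tsc22d3 differed by 0.67 (SE 0.25) in Apc F and -0.61 (SE 0.37) in AOM F, and Fkbp5 by -0.20 (SE 0.30) in Apc M and 1.10 (SE 0.52) in AOM M. Nampt, the rate-limiting enzyme of NAD salvage, differed by 0.24, -0.23 and -0.04 in the 3 sets, and Sik1, a kinase that limits clock resetting, by -0.20, -0.26 and -0.17. In the third set all 5 outputs lay below 0, none beyond -0.27. Further genes of the pathway, 23 kinases, ligases and cofactors such as Gsk3b and Sirt1, had 0 called by edgeR in any diet comparison; in the Apc set 14 lay higher and 9 lower with a median of 0.03, and 0 reached an unadjusted p below 0.05. In the third set 16 lay higher and 7 lower, with a median of 0.05. Of 8 other glucocorticoid-responsive genes 0 were called, with 3 higher and 5 lower in AOM M and in the third set. In the Apc set the letters lay apart, with 7 of 8 higher in F (median 0.59) and 7 of 8 lower in M (median -0.77); the F-minus-M difference was above 0 for all 8, with a median of 1.15, 4 of them at an unadjusted p below 0.05 and 0 called. Of 7 immediate early genes 0 were called, with 3 higher in the Apc set, 1 in AOM M and 0 in the third set.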

How the data were processed

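Per the labels' protocols, total RNA was extracted with Trizol, mRNA was captured on oligo(dT) beads, and the libraries were amplified by PCR and by rolling circle before DNBSEQ sequencing. The deposited values are raw read counts per gene. The authors made the AOM and the third set's tables with featureCounts in paired mode, over exons by gene, on Ensembl annotation of GRCm39, per the file headers; the Apc header records no command. The submitters' processing notes also name FastQC, fastp, HISAT2 and SAMtools, with no versions. The reads carry no molecular identifiers, so they are not independent molecules.

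Genes were filtered with filterByExpr, scaled by TMM and tested with the quasi-likelihood test of edgeR 4.0.16 (R 4.3.3, limma 3.58.1) over all groups of a set, with Benjamini-Hochberg adjustment over all genes and a threshold of 0.05. DESeq2 1.42.0 was an alternative, as were RLE size factors, no filter, compared groups only, a smooth muscle covariate, the replicate number as a block and leaving out each library. Correlations used log2(CPM + 0.5), with CPM the deposited count per 1000000 counted reads. The test was tested on simulated data with 200 changed genes: it recovered 67% of changes of log2 1 and 95% of log2 2 in the Apc diet comparison, 39% and 81% in Apc M, 37% and 83% in the AOM diet comparison, 5% and 60% in AOM M, and 59% and 91% in the third set.

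The members and lists were chosen with earlier results of these data known, and the AOM comparisons by letter after their values were seen. Values in every library were given for Dbp, Nr1d1, Nr1d2, Per1, Per2, Per3, Ciart, Tef, Hlf, Arntl, Clock, Npas2, Cry1 and Nfil3 in the Apc set and for Dbp, Nr1d1, Per2, Ciart, Arntl and Npas2 in the others; further members were given by differences, group means and counts. Gene pathway and marker lists were given by counts.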

Additional observations from a re-analysis of the deposited data

Results flagged for a closer look

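In 60 groups of 4 libraries from the third set, 5 held a library far from its group, where chance gives about 1 group in 20. Tef was 123 CPM in black rice replicate 4, against 84.3 to 90.6 in the other 3. Per3 was 42.8 CPM in the same library, against 27.8 to 29.9. Timeless was 6.20 CPM in black rice replicate 2, below 7.25 to 7.31 in the others. Npas2 was 49.5 CPM in control replicate 1, against 22.9 to 26.3. Sik1 was 8.91 CPM in control replicate 4, against 4.95 to 5.26.

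For 10 members every black rice library lay on one side of the control mean in the Apc set and on the other side in the AOM set. The share of all genes that did so was not computed, so this count is not read as a result about the members. The differences between the sets were not tested. In M libraries the Apc difference minus the AOM difference was 0.97 on the log2 scale for Nr1d2 (0.58 and -0.39), 1.51 for Timeless (0.77 and -0.75), 0.45 for Wee1 (0.14 and -0.31), -0.45 for Bhlhe40 (-0.09 and 0.36) and -1.30 for Fkbp5 (-0.20 and 1.10). In F libraries it was 1.67 for Per3 (0.66 and -1.01), 1.28 for Tsc22d3 (0.67 and -0.61), 1.11 for Cry2 (0.57 and -0.55), 0.95 for Rora (0.71 and -0.24) and -1.06 for Nfil3 (-0.62 and 0.44).

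The AOM library left out of the comparisons, black rice F replicate 3, held 194500 CPM of hepatocyte markers. In it Nfil3 measured 33.5 CPM, against at most 13.9 in any other library of the 3 sets, Rora 45.2 against 19.7 and Fbxl21 3.54 against 1.92.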

How the results depend on the processing

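Across the alternatives 771 values for the comparisons stayed within their spread or within 1.5 times of the count, 42 moved, and no called value changed sign. Medians near 0 did change sign with 1 library left out: the Dbp-phase median ran from -0.51 to 0.22 in the AOM diet comparison, -0.16 to 0.0018 for Apc black rice against WT and -0.10 to 0.028 for Apc F against M, and the Arntl-phase median from -0.15 to 0.044 in Apc F. With DESeq2 the members called were 5 in the Apc diet comparison, 2 in F, 4 in M, 1 for the F-minus-M difference, 5 for control against WT, 1 for Apc F against M, 4 for AOM F against M, 1 for the AOM F-minus-M difference and 1 in the third set. The share of all genes that DESeq2 called is not given beside these counts. Without a low-count filter 1 member was called in the Apc diet comparison (Nr1d2) and 1 in AOM F against M (Ciart). In Apc M the call of Ciart was lost, leaving 0, with the smooth muscle covariate and with the compared groups only. With 1 library left out, members called ran from 0 to 1 in Apc M and in AOM F against M. The Arntl-phase medians then ran from -0.77 to -0.24 in the Apc diet comparison, -1.38 to -0.60 in M, 0.63 to 1.43 for the F-minus-M difference, 0.52 to 1.02 for control against WT, -0.30 to 0.061 for the AOM diet comparison, 0.41 to 0.68 in AOM F and -0.99 to -0.59 in AOM M. The Dbp-phase medians ran from -1.37 to -0.35 in AOM F and -1.88 to -0.84 for the AOM F-minus-M difference. With all 12 AOM libraries the Arntl-phase median was 0.93 in F and 1.82 for the F-minus-M difference, and r of Dbp with Arntl -0.48. Where an AOM group kept 1 library, that library was assumed to vary like the others. The causes were not tested.

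The correlation of same-numbered libraries' deviations was over 0.1 in 17 of 45 pairs in the Apc set, 8 of 15 in the AOM set and 1 of 4 in the third set, not in every pair, so the numbers were not taken as pairing. In the AOM set the median correlation was 0.17 for the same number and -0.038 for other numbers, and 7 of 11 libraries correlated best with their own number, against 3 of 18 and 2 of 8 in the other sets. With the replicate number as a block the Apc M comparison called 0 members, with Ciart at 2.11 and an edgeR adjusted p of 0.096, and no other count of members called changed.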
